A study of Sus scrofa with 36 samples.

Results

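The transcripts examined here code for 7 nuclear factors of the adrenal cortex, out of 11627 named genes on the array: NR5A1 (SF1), NR0B1 (DAX1), NR0B2 (SHP), NR5A2 (LRH1), GATA6, GATA4 and CITED2. They were represented by 21 of the 60305 probes of a pig array, of which 19 were among the 45348 probes of the authors' normalized table. The genes were chosen by earlier results of these data: NR5A1, NR0B1 and NR0B2 were selected on the difference between heat stress (HS) and thermoneutral (TN) pigs, and the other 4 as related factors. That difference is therefore given as a description. How many probes were past the fit's threshold is printed beside the share of all probes, and nothing is read from it.

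Adrenal glands came from 36 castrated male growing pigs of 3 breeds, Creole, Large White and their Large White × Creole cross, each pig on its own array and 6 pigs for each combination of breed and temperature. TN pigs were kept at 24 °C and slaughtered before the rise in temperature, and HS pigs were slaughtered after up to 5 days at 32 °C by the protocol, while the sample labels give 30 °C. Littermates were spread over both temperatures, pens held pigs of a single breed, and temperature and day of slaughter cannot be told apart. Pen, litter and day were not used here, so the p-values measure the spread between pigs as if they were unrelated.

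SF1 is an orphan nuclear receptor that forms the adrenal cortex and drives most genes of steroid synthesis, and LRH1 is its close relative, which binds the same kind of site in liver, gut and ovary. DAX1 and SHP are atypical receptors without a DNA-binding domain, and both repress SF1 and LRH1 by binding to them. GATA6 and GATA4 are zinc finger factors that act with SF1 at steroid gene promoters, and CITED2 is a co-factor needed for the adrenal gland to form.

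Every probe was 60 bases long, and several genes had probes that read different stretches, or the same stretch more than once. NR5A1 had 4 probes of 3 sequences, NR0B1 3 of 2, NR0B2 2 of 2, NR5A2 1, GATA6 2 of 1, GATA4 3 of 2 and CITED2 6 of 6. Probes 1 and 2 of NR5A1, of NR0B1 and of GATA6 are the same sequence printed at separate places, so their agreement is a technical repeat. Probes 1 and 2 of CITED2 share a run of 39 bases and its probes 3 and 5 a run of 18, so these pairs are not separate readings either. The sequences below are those on which the readings of NR5A1, NR0B1 and NR0B2 rest, and for probe 1 of NR5A1 and of NR0B1 the first 30 bases are shown.
NR5A1 probe 1: tcttggatgtgttctctgaaaagaattttg
NR5A1 probe 3: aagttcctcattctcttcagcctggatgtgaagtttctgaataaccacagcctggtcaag
NR5A1 probe 4: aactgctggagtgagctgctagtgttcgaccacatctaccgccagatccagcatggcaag
NR0B1 probe 1: cccaagtacaggagctgtgagcagaagagt
NR0B2 probe 1: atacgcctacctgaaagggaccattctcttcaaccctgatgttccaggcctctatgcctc

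The GATA4 probes are shown because they lie on opposite strands. The capitals mark the 46 bases of probe 1 that are the reverse complement of the capitals in probe 2.
GATA4 probe 1: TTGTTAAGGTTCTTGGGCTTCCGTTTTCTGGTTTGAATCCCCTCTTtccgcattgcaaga
GATA4 probe 2: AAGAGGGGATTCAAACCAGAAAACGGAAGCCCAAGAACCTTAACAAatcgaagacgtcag

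By RefSeq on Sscrofa11.1, NR5A1 lies at chr1:265284491-265311547, NR0B1 at chrX:26117874-26122951 and NR0B2 at chr6:84225670-84228156. NR5A2 lies at chr10:22727865-22866905, GATA6 at chr6:107282709-107314725, GATA4 at chr14:14858470-14938156 and CITED2 at chr1:25155652-25158517.

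Array medians in the authors' table lay between 8.52 and 8.53 on the log2 scale, and any pair of arrays correlated at 0.982 to 0.996. The adrenal label fitted the markers: the cortex genes with a probe (7 of 8 listed) averaged 15.98 to 16.48 log2 units per pig, and the medulla genes (6 of 8 listed) 13.38 to 14.48. CYP11B1 and TH, among the defining markers, had no probe in the table. In these whole glands, fewer cells of a type and less RNA per cell cannot be told apart.

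The SF1 transcript was lower in HS pigs on each of its 4 probes. On NR5A1 probe 1, the brightest, TN pigs ran from 12.25 to 13.06 log2 units with a median of 12.44, and HS pigs from 11.99 to 12.54 with a median of 12.20. The groups overlapped, but 12 of the 18 HS pigs were below every TN pig, and 16 were below the TN mean of their breed. The breed-adjusted difference, HS minus TN, was -0.25 ± 0.06 (SE, n = 18 and 18).

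The probes of NR5A1 elsewhere in the transcript differed in the same direction. The difference was -0.24 ± 0.07 for probe 2, which has the sequence of probe 1. It was -0.23 ± 0.07 for probe 3 and -0.15 ± 0.07 for probe 4, which by the scanner files start at bases 1980 and 1764 of the transcript, ahead of probe 1 at base 2874.

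DAX1, a repressor of SF1, was higher in HS pigs on the sequence shared by probes 1 and 2. NR0B1 probe 1 ran from 10.59 to 12.23 in TN pigs with a median of 11.65, and from 11.62 to 12.57 in HS pigs with a median of 12.15. All but 1 of the 18 HS pigs were above the TN mean of their breed, and 7 were above every TN pig. The difference was 0.50 ± 0.10 on probe 1 and 0.52 ± 0.08 on probe 2 (SE, n = 18 and 18).

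Probe 3 of NR0B1, the other sequence of this gene, did not show that difference. It was well above background on 36 arrays and ran from 6.73 to 7.95 in TN pigs and from 6.69 to 7.46 in HS pigs, and its difference was -0.06 ± 0.09. This probe has no run of 20 bases in common with any other probe on the array, by which its strand could have been read. Its strand was therefore not checked, and it is not counted as a second reading of the transcript. The higher level of NR0B1 in HS pigs was thus read from the sequence of probes 1 and 2 alone. The strand was likewise unchecked for probe 2 of NR0B2, the single probe of NR5A2 and probe 6 of CITED2, which belong with NR0B1 probe 3 and GATA4 probe 1 to a separate series of 9532 probes on the array. Of that series, 1716 shared a run of 25 bases with a probe of the common design on the same strand and 124 on the opposite strand.

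SHP, the other repressor, was lower in HS pigs on both of its probes, which share no sequence and of which probe 2 is of unchecked strand. NR0B2 probe 1 ran from 9.19 to 10.75 in TN pigs with a median of 9.95, and from 8.07 to 10.30 in HS pigs with a median of 9.10. The ranges overlapped, with 11 of the 18 HS pigs below every TN pig and 17 below the TN mean of their breed. The differences were -0.77 ± 0.17 on probe 1 and -0.70 ± 0.15 on probe 2, the largest among the 7 genes.

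**Figure D1:**
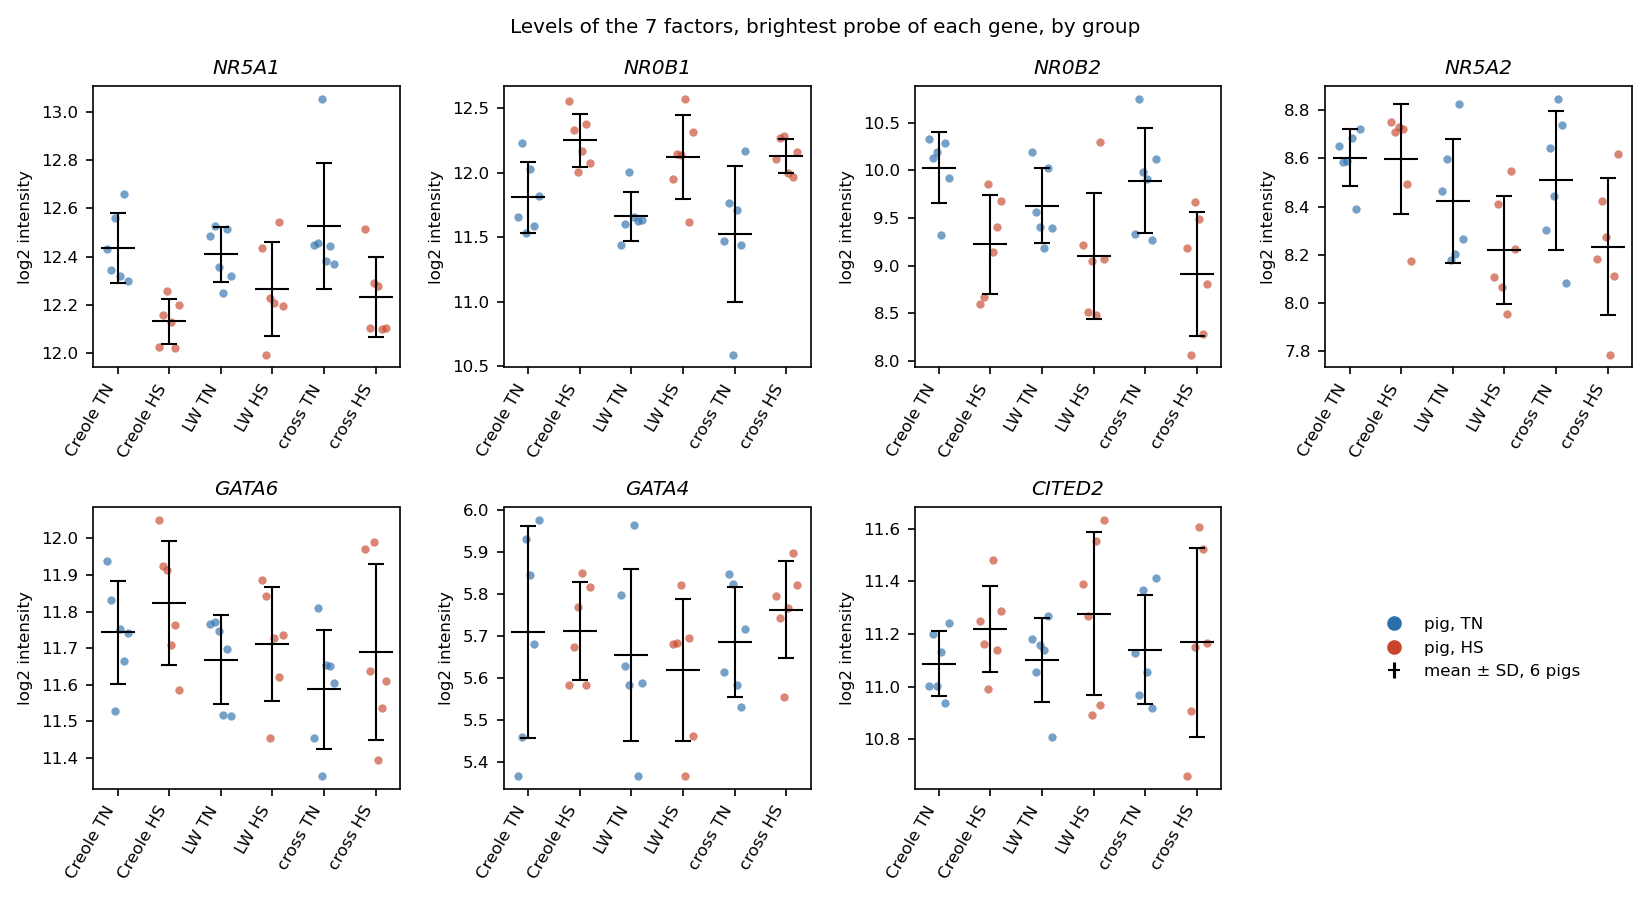
Log2 intensity of the brightest probe of each gene (y axis) in the 6 groups (x axis, LW = Large White), 1 point per pig, with the mean and SD of 6 pigs in black. HS points lie lower for NR5A1 and NR0B2 and higher for NR0B1, and the other genes differ less. In the NR5A1 and NR0B1 panels 1 cross TN pig stands apart at 13.06 for NR5A1 and 10.59 for NR0B1.

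The 4 remaining genes differed less between temperatures. The probe of NR5A2, the LRH1 gene, ran from 8.08 to 8.85 in TN pigs and from 7.79 to 8.75 in HS pigs, a difference of -0.16 ± 0.08. GATA6 probe 1 ran from 11.35 to 11.94 in TN pigs and from 11.40 to 12.05 in HS pigs, a difference of 0.07 ± 0.05. The CITED2 differences lay between 0.02 and 0.13 over the 5 probes outside that series, all above 0, and probe 6 was 0.02 ± 0.10, with HS pigs more spread than TN pigs on probe 1 (SD 0.28 and 0.16).

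GATA4 could not be read in the sense direction. Probes 2 and 3, which share a sequence, were well above background on 5 and 0 of the 36 arrays and were not in the table. Probe 1, on the opposite strand, was well above background on 27 arrays, and its difference was 0.01 ± 0.06. Values of probe 1 are thus no measure of the GATA4 transcript in its coding direction.

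**Figure D2:**
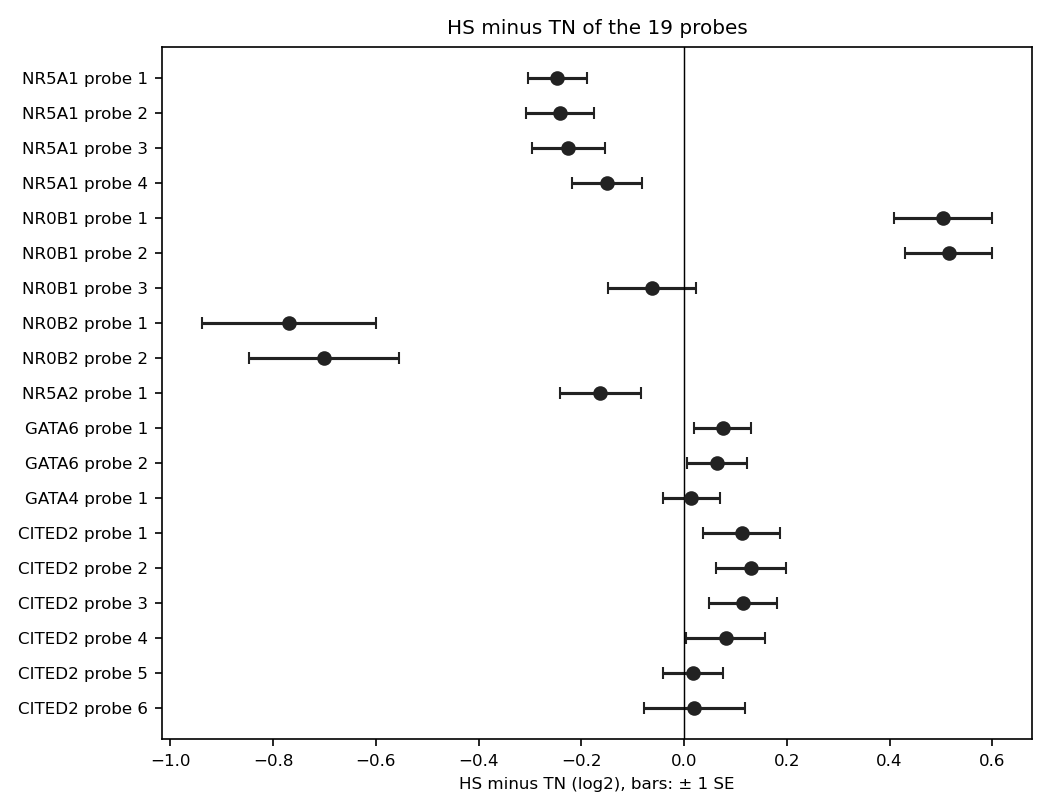
Difference between HS and TN pigs (x axis, log2) for the 19 probes (y axis), as points with ± 1 SE from the limma fit with breed. NR5A1 and NR0B2 probes lie below 0, NR0B1 probes 1 and 2 at 0.50 and 0.52, and NR0B1 probe 3 at -0.06.

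In all, 5 of the 19 probes were past an adjusted p of 0.05, 2 higher and 3 lower in HS, beside 0.911% of all probes in the table (0.41% higher and 0.501% lower). Because this contrast chose 3 of the genes, nothing is read from that count. The 5 were NR5A1 probe 1 and probes 1 and 2 of NR0B1 and of NR0B2. The count was 2, 1, 2, 2 and 4 without slide 1, 2, 3, 4 and 5, where the number over the whole table fell from 413 to 171, 40, 34, 53 and 341. NR5A1 probe 1 was not past the threshold without any 1 of the 5 slides, at -0.27 to -0.20. NR0B2 probe 1 was not past it without slide 1, 2, 3 or 4, at -0.82 to -0.72, NR0B2 probe 2 without slide 1, 2 or 4, and NR0B1 probe 1 without slide 2 or 3, while NR0B1 probe 2 was past it each time. By slide, HS minus TN of the brightest probe ran from -0.41 to -0.15 for NR5A1, from 0.33 to 0.81 for NR0B1 and from -0.998 to -0.437 for NR0B2. NR5A1 probe 4 was 0.13 on slide 1, which holds 2 TN and 2 HS pigs, and -0.26 to -0.04 on the others. The slides divide the same arrays that chose the genes, so these are parts of the one difference and no separate evidence of it.

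Markers of the cortex, the medulla and other cells were set beside these differences. Medulla genes were below 0 in 6 of 6 cases (-0.35 to -0.02) and cortex genes in 6 of 7 (-0.15 to 0.04). In limma, 0 were past the threshold and 1 of each was at an unadjusted p under 0.05. Of all 45348 probes, 6121 were under that unadjusted p. The pigs' mean of the medulla genes ran from 13.62 to 14.48 in TN and from 13.38 to 14.23 in HS, and that of the cortex genes from 16.03 to 16.39 and from 15.98 to 16.48. Markers of red blood cells were below 0 in 3 of 3 (-0.67 to -0.02), and those of hepatocytes, gonad, adipocytes, endothelium and immune cells lay on both sides of 0, with 0 called in limma in each list (at an unadjusted p under 0.05, 1 red blood cell gene and 0 in each of the others). The widest were the gonad genes, from -0.04 to 0.87 over 3 with a probe. Their part in the differences of the 7 genes was not tested.

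The difference of the 3 genes is also given by breed, again as a description of the pigs that chose them. For NR5A1 it was -0.30 ± 0.07 among Creole pigs, -0.14 ± 0.09 among Large White pigs and -0.29 ± 0.13 among cross pigs (SE, n = 6 and 6). The Creole HS pigs (12.02 to 12.26) all lay below the Creole TN pigs (12.30 to 12.66), whereas the ranges overlapped in the other breeds. In the same order of breeds, the NR0B1 difference was 0.44 ± 0.14, 0.46 ± 0.15 and 0.61 ± 0.22, and that of NR0B2 was -0.81 ± 0.26, -0.53 ± 0.31 and -0.98 ± 0.35. Whether the response differed between breeds was tested by the interaction: 0 of the 19 probes were past the threshold in limma, beside 0% of all probes. At an unadjusted limma p under 0.05 there were 0 of the 19, beside 1914 of all 45348 probes.

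**Figure D3:**
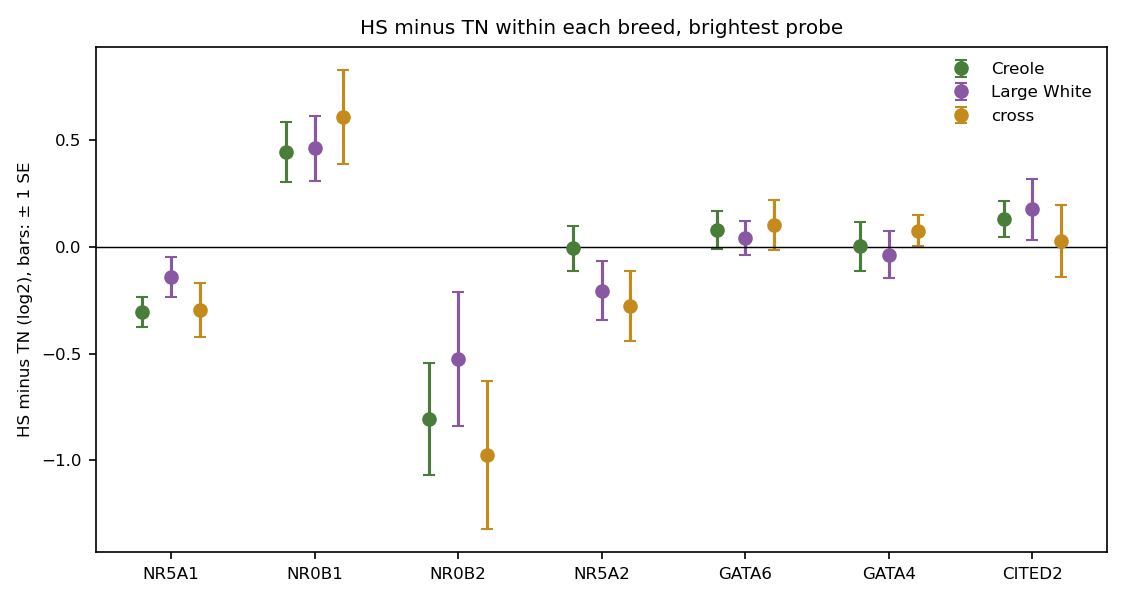
HS minus TN (y axis, log2) of the brightest probe of each gene (x axis) in Creole, Large White and cross pigs, points with ± 1 SE of 6 and 6 pigs. The 3 breeds lie on the same side of 0 for NR5A1, NR0B1 and NR0B2.

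The order of the 6 group means differed from gene to gene. For NR5A1 the 3 TN groups were highest, from 12.53 ± 0.26 (SD, n = 6) in the cross to 12.41 ± 0.12 in Large White, and Creole HS was lowest at 12.13 ± 0.09. For NR0B1 the 3 HS groups were highest, from 12.25 ± 0.21 in Creole down to 12.12 ± 0.32 in Large White, and cross TN was lowest at 11.52 ± 0.53. For NR0B2 Creole TN was highest at 10.03 ± 0.38 and cross HS lowest at 8.92 ± 0.65. For NR5A2 both Creole groups came first, at 8.60 ± 0.12 (TN) and 8.60 ± 0.23 (HS), and Large White HS last at 8.22 ± 0.22. In none of the 7 genes did neighbours in the order differ by more than the larger of their SDs.

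Breed, which did not choose the genes, was tested over all probes of the table. The F test over the 3 breeds passed for 0 of the 19 probes in limma (1 at an unadjusted p under 0.05), beside 10.6% of all probes. Large White minus Creole passed for 0 of 19 (2 at an unadjusted p under 0.05), beside 11.5% of all probes. Cross minus the mean of the parents passed for 0 of 19 (0 at an unadjusted p under 0.05), beside 0.415%. At an unadjusted limma p under 0.05 there were 11243, 11070 and 5057 of all 45348 probes in these 3 tests, in that order.

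The NR5A2 probe, whose strand could not be checked, came nearest to a breed difference. Creole pigs ran from 8.17 to 8.75 (median 8.67), Large White pigs from 7.96 to 8.83 (median 8.25) and cross pigs from 7.79 to 8.85 (median 8.36). The ranges overlapped, and Large White was -0.28 ± 0.10 from Creole (limma, adjusted p = 0.0515), a value that crossed the threshold under some settings. NR0B2 was -0.26 ± 0.21 on probe 1 and -0.38 ± 0.18 on probe 2 (limma, adjusted p = 0.483 and 0.176). The sequences of NR5A1 differed in sign, at 0.06 ± 0.07 on probe 1, 0.05 ± 0.08 on probe 2, -0.12 ± 0.09 on probe 3 and -0.17 ± 0.08 on probe 4. NR0B1 was -0.14 ± 0.12 on probe 1 and -0.05 ± 0.10 on probe 2, which share a sequence. It was 0.07 ± 0.10 on probe 3, whose strand was not checked. In the same contrast, 4 of 5 adipocyte markers were past the threshold and lower in Large White, and 3 of 6 medulla markers past it and higher. The pigs' mean of the adipocyte markers ran from 8.66 to 9.91 in Creole and from 8.28 to 8.99 in Large White, and that of the medulla markers from 13.50 to 14.23 and from 13.38 to 14.48. Their part in the breed values was not tested.

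**Figure D4:**
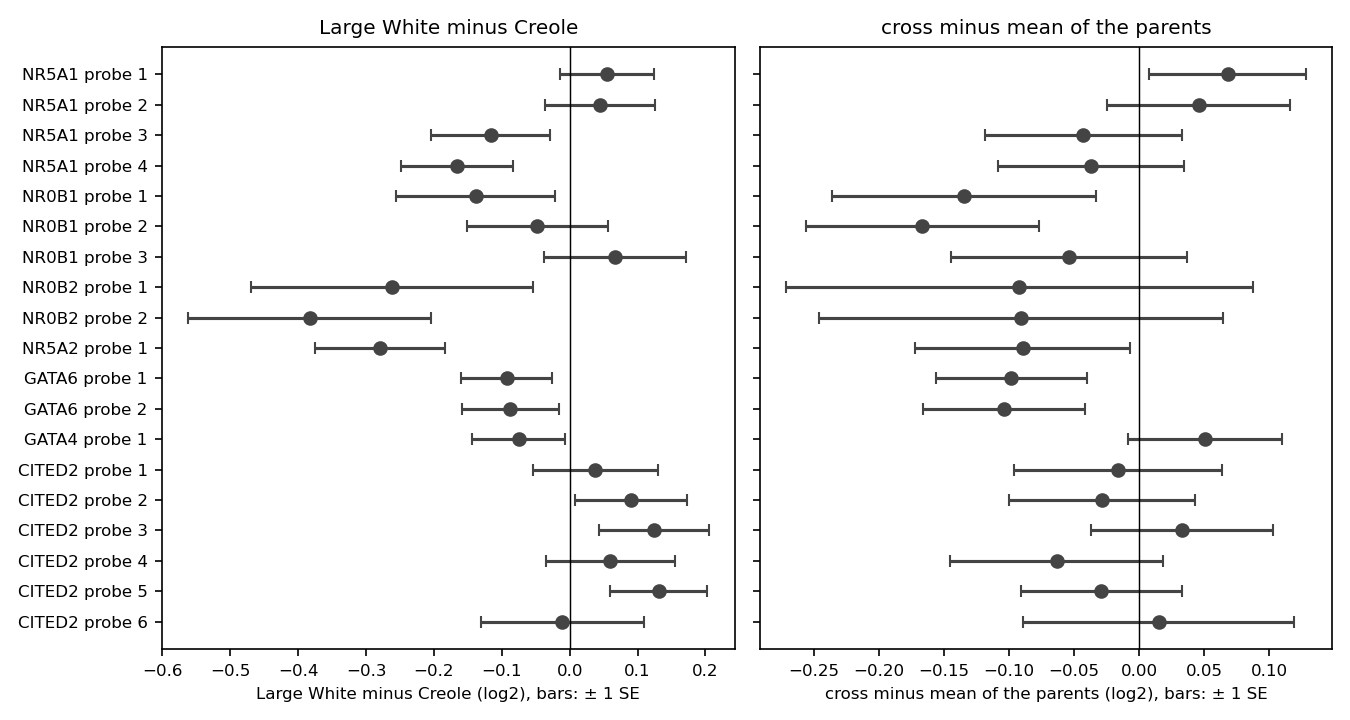
Large White minus Creole (left) and cross minus the mean of the parents (right), in log2 units (x axes), for the 19 probes (y axis), points with ± 1 SE from the limma fit with temperature. No probe was past the threshold; NR5A2 lay at -0.28 on the left.

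Of the 3 pairs among NR5A1, NR0B1 and NR0B2, 2 were correlated among pigs of the same group. Values were centred on the 6 group means, which removes the temperature difference that chose the genes, and all 21 pairs of the 7 genes were compared over the 36 pigs. NR5A1 and NR0B1 ran opposite to each other, with Pearson's r = -0.72 (permutation p = 0.00015, adjusted p = 0.00315) and Spearman's rho = -0.62 (permutation p = 0.00035, adjusted p = 0.00567). The correlation was -0.79, -0.61 and -0.75 within Creole, Large White and cross pigs, and -0.86 to -0.53 within the 4 slides of 8 arrays. Without the 2 pigs farthest from the median of NR5A1 it was -0.62. The cross TN pig with the highest NR5A1 also had the lowest NR0B1, and without it r was -0.55 (permutation adjusted p = 0.0188).

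NR5A1 and NR0B2 ran in the same direction. Pearson's r was 0.52 (permutation p = 0.00438, adjusted p = 0.046) and Spearman's rho 0.59 (permutation p = 0.00054, adjusted p = 0.00567). It was 0.55, 0.84 and 0.30 within Creole, Large White and cross pigs, and 0.36 to 0.69 within slides. Without the 2 farthest pigs it was 0.63. Leaving out any 1 of the 5 slides took the adjusted p above the threshold, to between 0.0572 and 0.127, with r from 0.50 to 0.55. The remaining 19 pairs did not pass, among them the 2 repressors with each other (NR0B1 and NR0B2, r = -0.30, permutation adjusted p = 0.316). The pigs of a pair of values share an array, its RNA and its normalization.

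**Figure D5:**
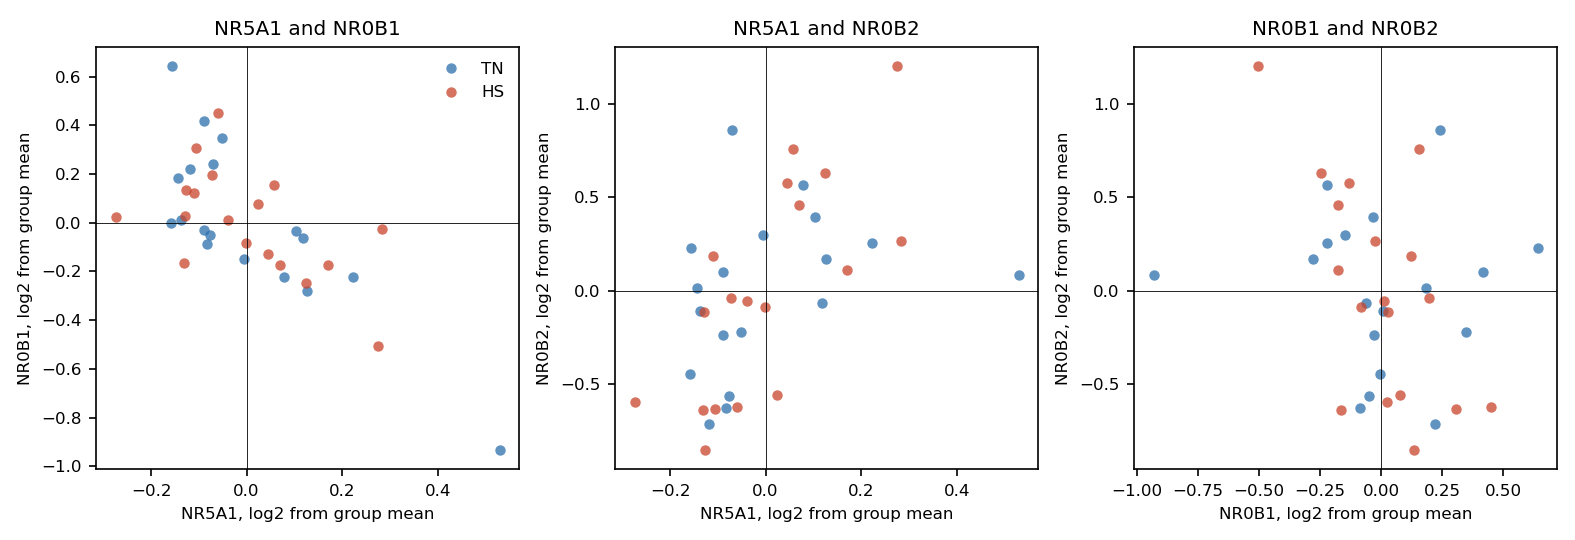
Log2 values of each of the 36 pigs as deviations from its group mean, for NR5A1 against NR0B1, NR5A1 against NR0B2 and NR0B1 against NR0B2 (brightest probes), with TN pigs blue and HS pigs red. The left panel falls (r = -0.72), with 1 TN pig at the lower right, the middle panel rises (r = 0.52), and the right panel has r = -0.30.

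Among 10205 other named genes, those most like NR5A1 over the same centred values were SRP72 (r = 0.82), FBXW7 (0.78), ZNF276 (0.75) and DUSP16 (0.72), and those most opposite were FAM198B (-0.71) and CDKN2D (-0.70). NR0B1 was most like PPP1R3D (r = 0.68), KCTD1 (0.66), ABTB1 (0.65) and SAMD13 (0.65), and most opposite to RBPMS (-0.72) and NAB2 (-0.70). NR0B2 was most like VTI1B (r = 0.68), COQ10B (0.67), NFYC (0.65) and PLK3 (0.65), and most opposite to PKDCC (-0.66) and PSPH (-0.64). These values are descriptions over 36 pigs, picked from many genes, and the 7 genes themselves were left out of the ranking.

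None of the listed genes that these factors act on or with was past the threshold between temperatures. Of the SF1 targets of steroid synthesis, 24 of 26 had a probe and 0 passed in limma, beside 1.01% of all named genes. At an unadjusted limma p under 0.05 there were 6, beside 6121 of all 45348 probes. Of the 24, 10 were above 0 and 14 below, with a median of -0.03 beside -0.01 over all named genes. LHCGR, the luteinizing hormone receptor, was 0.42 ± 0.29 and SULT2A1, a steroid sulfotransferase, 0.40 ± 0.38 (SE; limma, adjusted p = 0.578 and 0.722). STAR, which brings cholesterol into mitochondria, was -0.15 ± 0.06 (limma, adjusted p = 0.257).

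The co-regulators of these receptors (23 of 24 with a probe) had 0 past the threshold in limma and 3 at an unadjusted p under 0.05, led in size by TRERF1 at 0.18 ± 0.07 and NRIP1 at 0.15 ± 0.07. Factors of adrenal development and zonation (13 of 21) had 0 and 3, led by WT1 at 0.23 ± 0.10, whose probe had a low mean level of 5.87 log2 units. Other nuclear receptors and partners of LRH1 and SHP (23 of 27) had 0 and 4, led by NR1H4, the bile acid receptor that induces SHP in liver, at 0.26 ± 0.07, and HNF4A at -0.18 ± 0.08. Other GATA and CITED genes (6 of 6) had 0 and 0, led by CITED1 at -0.11 ± 0.08 and GATA3 at -0.09 ± 0.12. The unadjusted counts of these lists stand beside the same 6121 of 45348 probes.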

How the data were processed

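Total RNA of 36 adrenal glands was labelled with Cy3 and hybridized to 1-colour pig arrays. The authors extracted spots with Agilent Feature Extraction 10.10.1.1, and the scanner files as deposited list spot intensity as scanned. For the table, the authors took median intensities, normalized them by quantiles and gave log2 values (45348 probes), which rank as the scanner medians do (lowest Spearman's rho 1). The table held 0 columns with no sample. The precision is limited by the number of arrays.

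Groups came from the labels. Members and lists were chosen with earlier results of these data known. Probes were named by gene name, gene ID, RefSeq transcript or older symbol, and 34496 of 60305 had no symbol. Where a gene had several probes, the brightest stood for it unless each is named. All probes were fitted with breed and temperature by lmFit and eBayes of limma 3.58.1 (R 4.3.3), with Benjamini-Hochberg adjustment and a threshold of 0.05; 93 values were missing, none in the member probes. The study's random effects were not in the labels and were left out. Correlations used 100000 two-sided permutations within groups. The named genes are all members, the 2 largest differences of each list (where none passed; 1 of them is not reported here), and for NR5A1, NR0B1 and NR0B2 the 4 most like and 2 most opposite genes; STAR and the genes named for breed were added after their values were seen. Scripts were tested on simulated data. Alternatives were the scanner medians normalized anew (probes well above background on at least 9 arrays of TN or HS), the processed signal minus its 75th percentile, normexp with an offset of 50, other filters, slide as a block, array weights, no breed term, the mean of a gene's probes, and leaving out slides or pigs.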

Additional observations from a re-analysis of the deposited data

Results flagged for a closer look

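NR5A1 probe 1 in cross TN pigs had 1 pig far from the others of its group, at 13.06 log2 units, where the other 5 lay between 12.37 and 12.46. Its gap to the nearest pig was 0.87 of the range of the group. The brightest probes of the 7 genes were examined in 6 groups each, 42 in all, and chance alone marks about 5% of groups of this kind, or 2.1 of 42.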

How the results depend on the processing

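The count of member probes past the threshold for HS minus TN (5 of 19, beside 0.911% of all probes, from the contrast that chose 3 of the genes) was 2, 1, 2 and 2 without slide 1, 2, 3 and 4, and 5 to 7 with any 1 pig left out. Large White minus Creole (0 of 19) was 1, NR5A2 each time, with probes well above background on all arrays, with slide as a fixed block, with array weights and without slide 4, and 0 to 1 with any 1 pig left out. The pathway lists (0 genes past the threshold) had 2 with slide as a fixed block and 2 with array weights, and 0 to 2 with any 1 pig left out. Of 2 correlated pairs, 1 was left with the processed signal and without slide 1, 2, 3, 4 or 5, in each case NR5A1 with NR0B1; without cross TN replicate 3, an alternative chosen after seeing the data, there were 2. Over all probes, HS minus TN (413 past the threshold) gave 34 to 341 without a slide, 229 to 819 without a pig, 899 with slide as a block and 751 with array weights, and the interaction (0) gave 1 without slide 3 or 4 and 0 to 1 without a pig. The cross against its parents (188) gave 316 with slide as a block, 41, 14 and 86 without slides 2, 3 and 5, and 108 to 229 without a pig. Without slides 2 and 3 the breed F test (4821) gave 2673 and 2026, and Large White minus Creole (5207) gave 3357 and 2569. The causes were not tested. The breed F test, the cross against its parents and the interaction stayed at 0 of 19 under every alternative run, and no called difference changed sign. With the mean of a gene's probes in place of the brightest, 2 genes were past the threshold for HS minus TN in place of 3. NR5A1 (-0.22 ± 0.06) was not among them. NR0B1 was then 0.32 in place of 0.50, but its mean takes in probe 3, at -0.06, whose strand was not checked. No paired analysis was possible because the labels carry no replicate number, litter or pen.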

Other observations

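Some SF1 targets differed between breeds. For Large White minus Creole, 6 of 24 targets of steroid synthesis with a probe were past the threshold in limma, all lower in Large White, beside 11.9% of all named genes in either direction. They were HSD3B1 (-0.78 ± 0.11), SOAT1 (-0.64 ± 0.11), AMHR2 (-0.61 ± 0.15), HSD17B1 (-0.40 ± 0.10), STAR (-0.34 ± 0.08) and FDXR (-0.19 ± 0.05). HSD3B1 completes an early step of steroid synthesis, SOAT1 esterifies cholesterol and FDXR passes electrons to mitochondrial P450 enzymes. The other 18 targets were not past it. STAR and HSD3B1 are also 2 of the cortex markers, of which 2 of 7 were past the threshold, both lower. Adipocyte markers moved in the same contrast, with ADIPOQ at -1.62 ± 0.22, FABP4 at -1.33 ± 0.18, PLIN1 at -0.90 ± 0.14 and CIDEC at -0.59 ± 0.19, and so did the medulla markers CHGB (0.53 ± 0.09), PNMT (0.38 ± 0.12) and CHGA (0.16 ± 0.05), all past the threshold in limma. LEP, the other adipocyte marker, was 0.05 ± 0.06. Of the remaining lists, 1 of 4 endothelium genes was past it and higher, 1 of 4 immune cell genes past it and lower, and the hepatocyte, gonad and red blood cell genes, none past it, ranged from -0.40 to 1.47. The part of these in the values of the targets was not tested.

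Levels of the 7 genes were also set against the mean of the cortex, medulla and hepatocyte markers over group-centred values of the 36 pigs, 21 relations chosen after the data were seen. None passed after adjustment. The largest were NR5A2 with the medulla markers (r = -0.37, rho = -0.25, permutation p = 0.0308, adjusted p = 0.326) and NR5A1 with the cortex markers (r = 0.35, rho = 0.37, permutation p = 0.0311, adjusted p = 0.326), which were -0.20 and 0.24 without the 2 pigs farthest from the marker median.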
